A study of Mus musculus with 5 samples.

Results

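The cells described here are fibroblast progenitors of resting and regenerated mouse muscle that carried much Pi16 and no Stmn4, 263 cells of 17085 kept in the series. They were chosen by measured counts. In the quiescent library and the library of day 14 after injury, kept cells had at least 500 genes and at most 10% of their unique molecular identifiers (UMIs, 1 for each captured transcript) from mitochondrially encoded genes. Cells with at least 5 UMIs summed over the tendon genes Tnmd, Fmod, Kera and Chad, or over the mural genes Rgs5, Kcnj8, Abcc9 and Higd1b, were then set aside. A chosen cell had at least 3 Pi16 UMIs and at least 30 per 10000 of its UMIs, 0 Stmn4 UMIs, fewer than 3 UMIs summed over Dmkn, Sbsn and Krtdap, and fewer than 3 summed over Hsd11b1, Cxcl14, Mme and Hmcn2. The quiescent library held 93 such cells among 1900 remaining cells, a share of 4.89% (95% exact interval 3.97 to 5.96), and day 14 held 170 among 2424, a share of 7.01% (6.03 to 8.10). Of all kept cells they were 4.35% and 4.89%, since 238 kept cells of the quiescent library and 1051 of day 14 were tendon or mural cells by the sums above.

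Pi16 encodes a peptidase inhibitor found at the cell surface. It marks fibroblasts of the adventitia and fascia, around vessels and between tissue compartments, which are widely described as a resting store of progenitors that can give rise to more specialised fibroblasts. Dpp4, a cell-surface peptidase, Igfbp5, which binds insulin-like growth factors, Dact2, an inhibitor of Wnt signalling, and Smpd3, a sphingomyelinase, were the other markers named for these cells. Fibroblasts that sit among the muscle fibres instead carry genes of the basement membrane and of lipid handling.

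All 5 libraries came from whole hindlimb muscle of Hic1CreERT2/CreERT2;Rosa26LSLtdTomato/+ mice on the C57BL/6J strain, aged 8 weeks when given 2.5 mg of tamoxifen in 100 uL of sunflower oil a day for 5 days, then left for 10 days. The quiescent library was taken without injury, and the others 1, 2, 4 and 14 days after notexin, a muscle-destroying phospholipase of snake venom. Mesenchymal progenitors were sorted on the tdTomato reporter, and single-cell libraries were made from transcript 3' ends on the Chromium platform. The reporter marks only cells in which the Hic1 promoter drove the recombinase, both Hic1 alleles carry that recombinase, and the number of animals behind each library is not given in the labels. Each time point is 1 library, so nothing below has a replicate check, no test across samples was possible, and every interval is a 95% interval that covers counting error only. Because the cells were chosen by their counts, values of these cells beside other cells describe the choice and do not test it.

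The 5 libraries held 8043771 to 44552329 UMIs, with 8043771 in the quiescent library and 17612150 at day 14. Between 8 and 26 barcode sequences were shared by any pair of libraries, 11 of them by the quiescent and day 14 libraries. The chosen cells summed to 344212 UMIs in the quiescent library, with a median of 3777 per cell, and to 782295 at day 14, with a median of 4263.5. The other cells of the same libraries had medians of 3886 and 4993 UMIs. Levels are given as CPM, the UMIs of a gene over all cells of a set, divided by that set's total and scaled to the usual common total, and are not compared between genes. A level of 20 CPM was worth 6.88 UMIs in the quiescent set and 15.6 at day 14, so low genes carry more counting error in the former.

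Pi16 had a median of 19 UMIs per chosen cell in the quiescent library, with a range of 3 to 62, and of 24 at day 14, with a range of 5 to 136. Near the limit, 26 quiescent and 41 day 14 cells lay between 30 and 40 Pi16 UMIs per 10000, and 33 and 57 remaining cells lay just outside, between 20 and 30. Many cells were kept in or out by single Stmn4 UMIs. Of the cells that met every other condition but held Stmn4, called the Stmn4-positive counterparts below, 57 of 143 in the quiescent library and 100 of 282 at day 14 had exactly 1 Stmn4 UMI. Of the Pi16-high cells within the other limits, 236 in the quiescent library and 452 at day 14, Stmn4-free cells were 39.4% (33.1 to 46.0) and 37.6% (33.1 to 42.3), and this share moved with depth. It was 64.6% of 48 quiescent cells under 3000 UMIs, 33.1% of 163 cells from 3000 to below 6000, and 32.0% of 25 cells with 6000 or more. At day 14 the same bins held 63.4% of 82, 36.6% of 191 and 26.8% of 179 cells. The part of depth in the absence of Stmn4 was not tested.

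**Figure D1:**
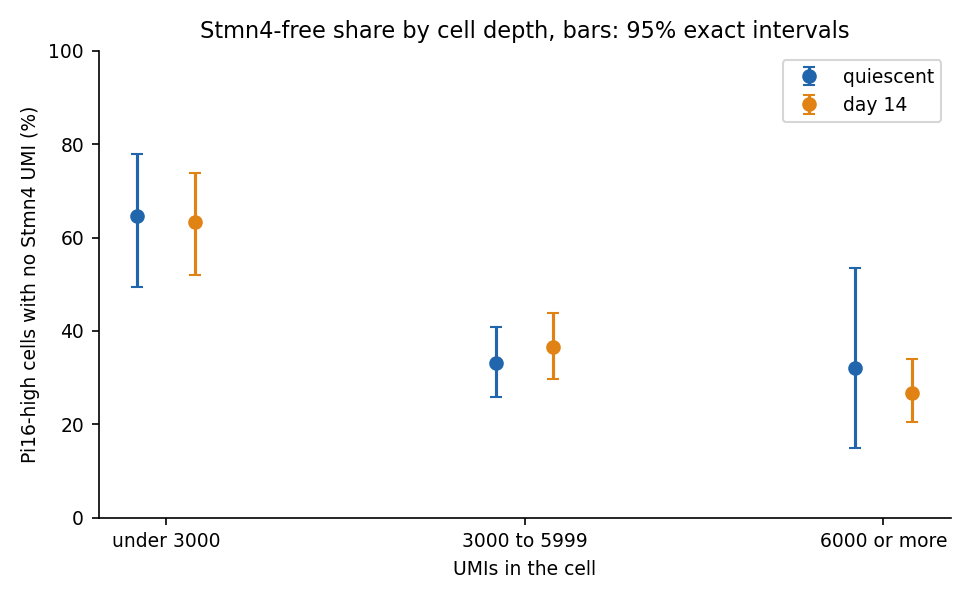
Percentage of Pi16-high cells with 0 Stmn4 UMIs (vertical axis) in 3 bins of UMIs per cell (horizontal axis) for the quiescent and day 14 libraries, with 95% exact intervals as bars. The shallowest bin lies near 64% in both libraries, above the 2 deeper bins at 26.8% to 36.6%.

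The named markers were found in these cells more often than in the rest, though not in each cell. With every cell thinned to 2000 UMIs, which left 79 quiescent and 148 day 14 cells and set 14 and 22 aside, Igfbp5 was found in 72.2% (60.9 to 81.7) and 76.4% (68.7 to 82.9). The other cells had it in 36.1% and 49.5%. Dpp4 was found in 51.9% and 37.8% of the chosen cells and in 22.5% and 17.0% of the others. Dact2 was found in 16.5% and 14.2%, against 6.05% and 7.68%, and Smpd3 in 13.9% and 7.43%, against 4.16% and 3.08%. Without thinning the chosen cells had Igfbp5 in 81.7% and 84.7%, Dpp4 in 66.7% and 66.5%, Dact2 in 24.7% in both libraries and Smpd3 in 21.5% and 18.8%. Mural cells, taken as a type that should lack Pi16 and Dpp4, had median depths before thinning of 1427 and 2814 UMIs. After thinning they had Dpp4 in 0 of 21 quiescent cells (up to 16.1%) and in 2.60% at day 14, and Pi16 in 14.3% and 17.2%. Igfbp5 was found in 38.1% and 54.2% of the mural cells, which is no lower than in the other cells. None of the 4 markers was found in 12.7% of the thinned quiescent cells chosen and in 16.9% at day 14, and at least 1 in the rest.

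In level, Igfbp5 was at 1964 CPM in the chosen quiescent cells and 909.4 in the others, 2.16-fold (1.99 to 2.34), and at 2365 against 1253 CPM at day 14, 1.89-fold (1.80 to 1.98). Smpd3 was at 101.7 against 26.7 CPM, 3.81-fold (2.57 to 5.49), and at 57.5 against 18.1, 3.18-fold (2.25 to 4.41). Dpp4 was at 351.5 against 169.3 CPM, 2.08-fold (1.71 to 2.51), and at 274.8 against 124.0, 2.22-fold (1.91 to 2.56). Dact2 was the weakest of the 4, at 75.5 against 42.1 CPM, 1.80-fold (1.15 to 2.68), and at 75.4 against 57.4, 1.31-fold with an interval that reaches 1 (0.989 to 1.72). These markers do not single the cells out from other Pi16-bearing cells. Cells with at least 3 UMIs of Dmkn, Sbsn and Krtdap, which the choice leaves out, had more Igfbp5 (3509 and 3892 CPM) and more Dact2 (187.6 and 226.9 CPM) than the chosen cells, and Dpp4 at 370.2 and 277.2 CPM. The farthest neighbours were cells with at least 3 UMIs of Hsd11b1, Cxcl14, Mme and Hmcn2 and no Pi16, where Dact2 was at 0 and 0.789 CPM, Smpd3 at 1.53 and 3.15, and Dpp4 at 47.5 and 6.31. By gene model (GENCODE M21, GRCm38), Pi16 lies at chr17:29317680-29330593 on the plus strand, Igfbp5 at chr1:72857932-72874884, Dact2 at chr17:14195052-14204304, Smpd3 at chr8:106252548-106337988 and Dpp4 at chr2:62330073-62412231, these 4 on the minus strand, and Stmn4 at chr14:66344296-66361680 on the plus strand.

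The cells carried the reporter and the general progenitor genes. The tdTomato transcript was at 1223 against 1244 CPM in the quiescent library and 1581 against 1680 at day 14, a ratio of 0.98 and 0.94. Ly6a, the gene of the stem cell antigen Sca-1, was at 3207 against 2132 CPM and 3413 against 2129. Cd34 was at 1569 against 1354 and 1850 against 1439 CPM. Pdgfra, the fibroblast receptor for platelet-derived growth factor, was lower, at 151.1 against 325.9 CPM in the quiescent library, 2.16-fold lower (1.64 to 2.90), and 189.2 against 255.9 at day 14, 1.35-fold lower (1.15 to 1.61). Hic1 itself gave 11 and 17 UMIs in all, at 32.0 against 38.0 and 21.7 against 37.0 CPM. Pan-fibroblast markers were all found (10 of 10) but were lower in sum, at 56253 against 78997 CPM in the quiescent library and 60041 against 80196 at day 14. Their median log2 ratios were -0.53 and -0.52, beside -0.06 and -0.08 over all genes. Immune markers summed to 0 and 4 UMIs in the chosen cells, 0 and 3 of 9 having a count, with Ptprc, Lyz2, Adgre1, Cd3e, Cd79a and S100a9 at 0 in both libraries. Endothelial markers summed to 9 and 17 UMIs, with Cdh5 and Cldn5 at 0, and Schwann markers to 473.5 and 552.2 CPM, against 694.9 and 835.1 in the other cells, with Sox10 at 0. Perineurial and endoneurial markers were higher in sum in the quiescent library, at 197.6 against 149.2 CPM, and lower at day 14, at 168.7 against 189.0. Cldn1, Moxd1 and Tenm2 of that list were at 0 in both.

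Against all other cells of its library, 217 of 6070 genes were at least 2-fold higher in the chosen quiescent cells with at least 20 CPM in the higher set (3.57%), and 425 at least 2-fold lower (7.0%). At day 14, 71 of 5787 were higher (1.23%) and 263 lower (4.54%). In both libraries 33 of 5452 genes were higher (0.605%) and 143 lower (2.62%). The 33 were 15.2% of the higher genes of the quiescent library and 46.5% of those of day 14, and the 143 were 33.6% and 54.4% of the lower genes. The interval excluded a ratio of 1 for 179 of the 217 and for all 71, and for 296 of the 425 and all 263. The choice used these cells, so the counts describe how far the chosen set lay from its neighbours. They also include genes of the choice, whose direction it set: Pi16 is among the 33 and Stmn4 among the 143.

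Lists below count genes with at least 5 CPM in either set, over which all genes gave 217 higher and 425 lower of 10142 in the quiescent library and 71 and 263 of 10028 at day 14. Modulators of Wnt signalling stood among the highest genes, though they were not particular to the chosen cells. Sfrp2 and Wnt2 were also among the leading genes of cluster 3 (quiescent) and cluster 0 (day 14), described below, with Dmkn and Sbsn. Chosen cells were 14.5% and 16.8% of the cells of those clusters. Sfrp2, a secreted protein that binds Wnt ligands, was at 162.7 CPM against 40.9 in the quiescent library, 3.98-fold (2.93 to 5.31), and at 104.8 against 28.7 at day 14, 3.65-fold (2.83 to 4.66). The ligand Wnt2 was at 101.7 against 31.3 CPM, 3.25-fold (2.21 to 4.66), and at 99.7 against 44.9, 2.22-fold (1.73 to 2.82). Sfrp4, a relative of Sfrp2, was at 296.3 against 148.7 and 338.7 against 150.3 CPM. Dact1, which like Dact2 binds Dishevelled, was 2.63-fold and 1.65-fold higher. Of the Wnt signalling list, 4 of 15 genes were called higher in the quiescent library and 3 of 17 at day 14, none lower, with median log2 ratios of 0.21 and -0.03 beside -0.06 and -0.08 over all genes.

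Lists of inflammatory mediators held calls both ways. Of 18 chemokine and cytokine genes 1 was called higher and 2 lower in both libraries, and of 9 prostaglandin genes 2 higher and 1 lower in the quiescent library and 2 each way at day 14. Il1r2, a decoy receptor that binds interleukin 1 without signalling, was at 154.0 against 21.7 CPM in the quiescent library, 7.10-fold (5.09 to 9.77), and at 127.8 against 40.1 at day 14, 3.19-fold (2.54 to 3.96). It was found in 18.3% of the chosen quiescent cells and 24.1% at day 14, no cell holding more than 8 of its 53 UMIs in the former. Ptgs2, the inducible cyclooxygenase, was at 104.6 against 48.7 and 92.0 against 42.2 CPM, and Ptgis, prostacyclin synthase, at 145.3 against 66.0 and 149.6 against 59.5, 2.20-fold (1.61 to 2.95) and 2.51-fold (2.05 to 3.06). The prostacyclin receptor gene Ptgir had 1 and 3 UMIs in the chosen cells, the latter at 3.83 against 28.9 CPM. Complement gene C3 was at 1011 against 441.2 and 1071 against 507.9 CPM, 2.29-fold (2.05 to 2.56) and 2.11-fold (1.96 to 2.27). Of 13 and 14 complement genes measured, 2 and 1 were called higher and 2 and 3 lower.

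The remaining high genes included Plac8, a small cysteine-rich protein, at 145.3 against 60.4 CPM in the quiescent library and 221.1 against 48.1 at day 14, 2.40-fold (1.76 to 3.23) and 4.60-fold (3.86 to 5.46). Adh7, an alcohol dehydrogenase that acts on retinol, was 2.63-fold and 2.62-fold higher, Edn1, the precursor of the vasoconstrictor endothelin 1, 2.28-fold and 2.60-fold, and Gda, guanine deaminase, 2.52-fold and 2.27-fold. Thbs2, a matricellular thrombospondin, was at 246.9 against 112.8 and 182.8 against 76.1 CPM. Anxa3, an annexin, was the most precisely measured of these ratios, 2.14-fold in both libraries (1.96 to 2.34 and 2.03 to 2.27).

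The list of adventitial progenitor genes was high as a group in level though less so in calls. Of its 24 genes, all with at least 5 CPM, 5 were called higher in the quiescent library and 4 at day 14, none lower, and the median log2 ratios were 0.77 and 0.62. Sema3c, a secreted guidance protein, was at 613.0 against 308.1 and 731.2 against 316.8 CPM, Procr, the protein C receptor, at 493.9 against 202.2 and 604.6 against 325.7, and Pcolce2, an enhancer of procollagen processing, at 1209 against 545.3 and 1110 against 597.6. Fn1, fibronectin, which is not in that list, was at 2266 against 938.3 and 2158 against 1093 CPM. An exception was Tppp3, a tubulin-binding protein, at 961.6 against 1598 and 786.1 against 1512 CPM, 1.66-fold and 1.92-fold lower.

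**Figure D2:**
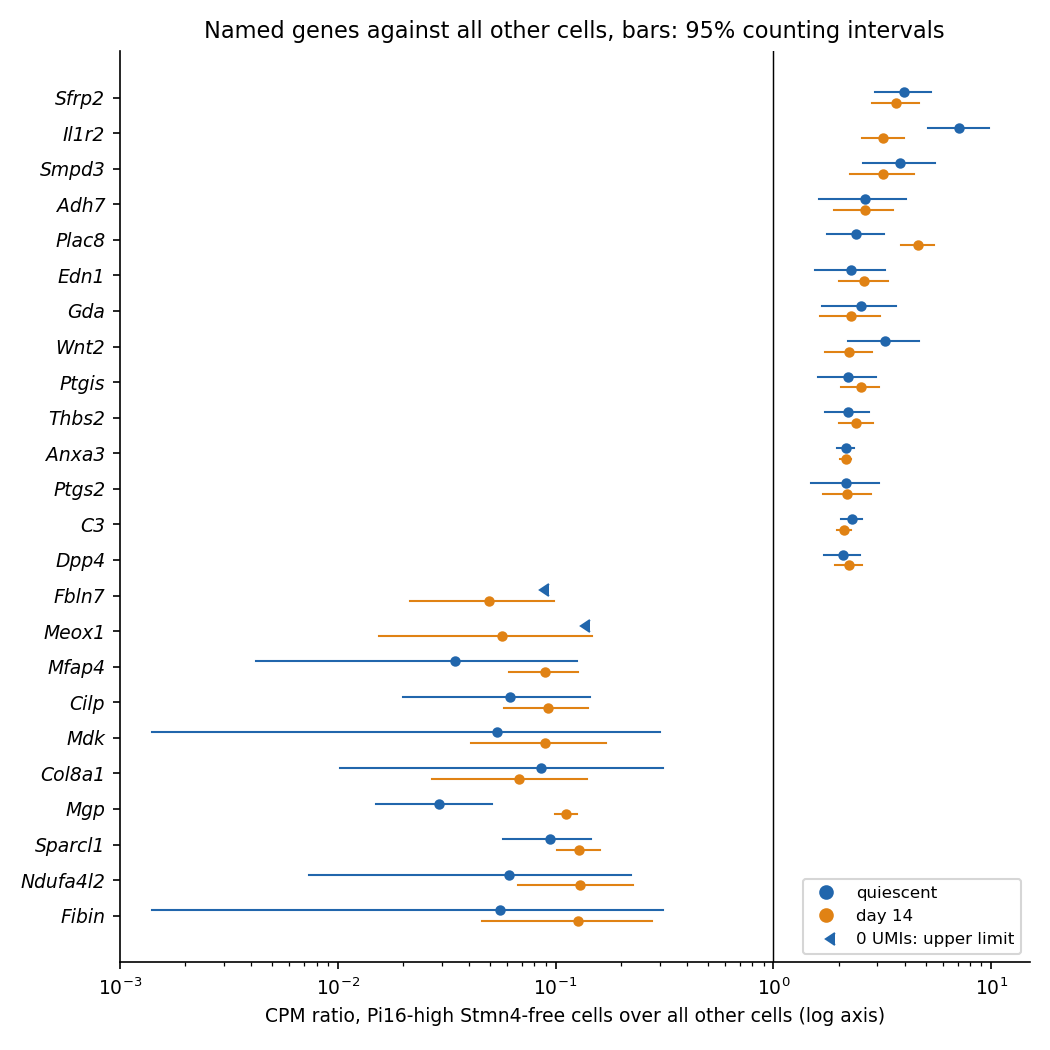
Ratio of CPM in the Pi16-high Stmn4-free cells over all other cells of the same library (horizontal log axis) for the 14 highest and 10 lowest genes by the naming rule, with 95% counting intervals as lines and triangles at the upper limit where the count was 0. The 14 upper genes lie between 2.08-fold and 7.10-fold in both libraries, and the 10 lower genes at or below 0.13.

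Genes of the fibroblasts within the muscle tissue were low beside all other cells, but not lower than in the Stmn4-positive counterparts as a sum. Summed parenchymal markers were at 3518 CPM in the chosen quiescent cells, 3328 in the counterparts and 9102 in the other cells. At day 14 they were at 3799, 2772 and 9508 CPM in that order. Of the parenchymal fibroblast list 12 of 16 genes were called lower in the quiescent library and 10 of 16 at day 14, none higher, with median log2 ratios of -1.35 and -1.67. Smoc2, a matricellular protein, was at 305.0 against 2452 CPM, 8.04-fold lower (6.64 to 9.83), and at 447.4 against 1750 at day 14, 3.91-fold lower (3.52 to 4.36). Sparcl1, a relative of osteonectin, was 10.6-fold (6.86 to 17.4) and 7.79-fold (6.24 to 9.84) lower. Lpl, lipoprotein lipase, was at 244.0 against 555.5 and 242.9 against 741.4 CPM, and G0s2, an inhibitor of triglyceride breakdown, at 34.9 against 319.9 and 40.9 against 191.7. The adipogenic list had 4 of 13 genes lower in the quiescent library and 4 of 11 at day 14.

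Of the basement membrane list 8 of 16 genes were called lower in the quiescent library and 5 of 15 at day 14, none higher, with median log2 ratios of -1.13 and -0.88. Col15a1 was at 29.1 against 339.6 CPM and 42.2 against 271.7, 11.7-fold (6.34 to 24.4) and 6.44-fold (4.58 to 9.37) lower. The type IV collagen gene Col4a1 was at 148.2 against 672.1 and 150.8 against 507.5 CPM, 4.54-fold and 3.36-fold lower. Collagen VI genes, which link cells to the matrix, were lower to a lesser degree: Col6a1 1.80-fold and 1.71-fold, Col6a2 2.58-fold and 2.04-fold, and Col6a3 2.53-fold and 2.58-fold. Lum, a small proteoglycan of collagen fibrils, was at 775.7 against 2278 and 1019 against 2597 CPM.

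The lowest ratios belonged to genes of other fibroblast sets, several of them all but missing. Fbln7, a fibulin, had 0 UMIs in the chosen quiescent cells against 126.8 CPM in the others, at least 14.5-fold lower by a floor of 3 counts over the set, and 8 UMIs at day 14, 20.2-fold lower (10.2 to 46.8). Meox1, a homeobox gene, had 0 UMIs against 82.3 CPM, at least 9.44-fold lower by the same floor, and 4 UMIs at day 14. Mfap4, a microfibril protein, had 2 and 32 UMIs, at 5.81 against 168.1 and 40.9 against 455.0 CPM, and 13 of the 32 were in 1 cell. Cilp, a cartilage matrix protein, was 16.2-fold (6.94 to 50.1) and 10.8-fold (7.13 to 17.3) lower. Mdk, Col8a1, Ndufa4l2 and Fibin had 1 or 2 UMIs each in the quiescent set and 6 to 12 at day 14. Mgp, an inhibitor of calcification, was at 34.9 CPM against 1197 in the quiescent library and 379.7 against 3397 at day 14. Of the list for fibroblasts with Clu and Gdf10, to which Mgp belongs, 7 of 9 genes were called lower in the quiescent library and 6 of 10 at day 14.

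The list for transforming growth factor beta and bone morphogenetic proteins gave 6 of 26 genes lower and 0 higher in the quiescent library, and 5 of 25 lower and 1 higher at day 14. The ligand gene Bmp5 (11.6 against 69.1 and 12.8 against 88.1 CPM) and the target Id1 (2.91 against 32.9 and 6.39 against 29.3) were among the lower. The ligand gene Bmp4 was among them in the quiescent library (49.4 against 117 CPM) and just short of the 2-fold limit at day 14 (40.9 against 81.7). Id3, of the same family as Id1, was not lower in the quiescent library. It had a mean of 1.23 UMIs per thinned chosen cell and 1.02 in the others. The heat shock list, which reads stress of tissue dissociation, had 0 of 15 genes called in either direction in both libraries, and the immediate early list 1 of 21 lower. Of the thinned cells, 0 of 79 in the quiescent library (up to 4.56%) and 1 of 148 at day 14 held 2 or more UMIs of the G2/M phase list. The S phase list reached 2 UMIs in 10.1% and 4.05%, against 7.43% and 7.29% in the other cells. Mki67, made in cycling cells, had a level of 0 and 1.28 CPM.

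The same limits were applied to the day 1, 2 and 4 libraries, to follow cells with the same counts through injury. Those libraries held 102 such cells at day 1 (2.25% of the cells that were not tendon or mural), 85 at day 2 (3.53%) and 291 at day 4 (7.64%). The share without Stmn4 among Pi16-high cells within the other limits was 76.7%, 81.7% and 57.9% there, against 39.4% in the quiescent library and 37.6% at day 14, so the choice kept a wider part of the Pi16-high cells after injury. A cell chosen by its counts at day 1 need not come from a cell that would have been chosen before. From quiescent through day 1, 2 and 4 to day 14, Igfbp5 in the chosen cells was at 1964, 651.3, 1559, 1902 and 2365 CPM. Dact2 was at 75.5, 15.9, 10.4, 26.2 and 75.4 CPM in that order, and Smpd3 at 101.7, 27.9, 45.7, 52.9 and 57.5. Dpp4 moved less, at 351.5, 201.2, 203.4, 267.8 and 274.8 CPM. Each of these genes was lowest at day 1 or day 2, where Dact2 rested on 8 and 5 UMIs.

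**Figure D3:**
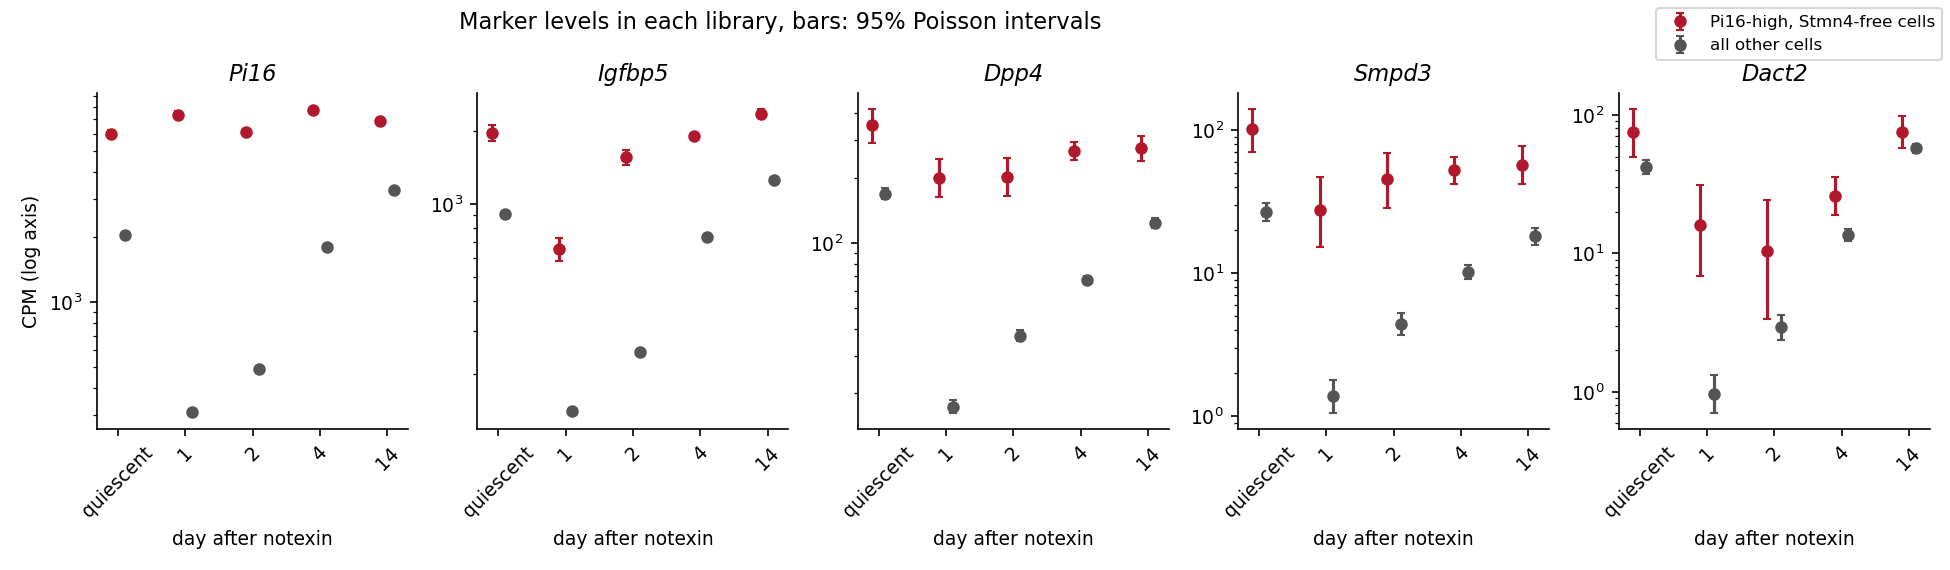
CPM (vertical log axis) of Pi16 and the 4 other named markers in the 5 libraries (horizontal axis) for the Pi16-high Stmn4-free cells and all other cells, with 95% Poisson intervals as bars. Pi16, which the choice used, stays between 5982 and 7698 CPM in the chosen cells, and all markers lie above the other cells in all 5 libraries, least so Dact2 at day 14, with 75.4 against 57.4 CPM.

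A few injury genes are given next, picked after their values were seen; others differed from them, such as Ly6a, at 5322 CPM in the chosen cells at day 1 and 1900 in the others, and Ccl7, a monocyte chemokine, at 610.3 against 531.4 CPM at day 4. Cxcl5, a chemokine that draws neutrophils, was at 43.8 CPM in the chosen cells at day 1 against 2875 in the others. Ccl2, which draws monocytes, was at 93.0 CPM before injury, 577.6 a day after it and 37.1 at day 14, against 145.2, 4295 and 127.9 in the other cells. Timp1, an inhibitor of matrix proteases, was at 23.2, 1291 and 49.9 CPM, against 42.1, 4752 and 63.7. Cthrc1, a collagen repeat protein of injured tissue, was at 477.6 CPM at day 4 and 992.7 in the others, and 24.3 and 36.8 at day 14. Sfrp2, high in the chosen cells before injury, had 0 UMIs in them at day 1 (up to 7.35 CPM). The other cells fell as well, from 40.9 CPM before injury to 3.20 at day 1. At day 2 Sfrp2 was at 49.8 CPM in the chosen cells, below the 97.1 of the other cells.

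Between the chosen cells of both libraries, 346 of 6015 genes passed the 2-fold limit upwards at day 14 (5.75%) and 419 downwards (6.97%), and the interval excluded a ratio of 1 for 151 and 218 of them. The balance between the directions turned with the scaling: TMM factors gave 386 upwards and 358 downwards, and DESeq2 size factors 389 and 358. With 5 counts in place of the CPM limit it was 1106 and 585. That limit is not a scaling, and it asks a lower CPM of the day 14 set, which had more UMIs (782295 against 344212). The other cells, with far more UMIs, had 60 of 5758 higher (1.04%) and 37 lower (0.643%). When the other cells' sums were thinned to the chosen cells' totals, they had 337 higher (5.39%) and 365 lower (5.84%), a count close to that of the chosen cells. Of the chosen cells' genes, 29 of the higher were also called in the other cells (8.38% of 346 and 48.3% of 60), as were 14 of the lower (3.34% of 419 and 37.8% of 37). The same sign was found there for 75.7% of the genes in each direction, and that share was not computed over all compared genes.

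Some of the largest ratios at day 14 rested on few cells, though Mgp was more widely spread. UMI counts in this paragraph and the next are not scaled. The day 14 set held 782295 UMIs in all and the quiescent set 344212, so equal levels would give more UMIs at day 14. Mgp was at 34.9 CPM in the quiescent set and 379.7 at day 14, 10.9-fold (6.14 to 21.3), against 2.84-fold in the other cells. Its 297 UMIs lay in 87 of 170 cells, with 73 in 1 cell. Thbs4, a thrombospondin of tendon, went from 2 to 51 UMIs, 20 of them in 1 cell, 11.2-fold (2.95 to 95.1), and was 1.17-fold higher in the other cells. Apoe, a lipid carrier, went from 4 to 75 UMIs, 30 of them in 1 cell, 8.25-fold (3.09 to 31.1), against 3.60-fold in the others. Hmox1, heme oxygenase, went from 6 to 47 UMIs, 24 of them in 1 cell. H19, an imprinted noncoding RNA, went from 2 to 43 UMIs in 10 of 170 cells, and was 5.46-fold higher in the other cells. Beside these, the summed tenocyte markers were at 23.2 CPM (4 of 9 with a count) in the chosen quiescent cells and 129.1 (6 of 9) at day 14, with Scx, Tnc and Col11a1 at 0 in both, and at 225.7 and 311.9 in the others. The library of day 14 held 808 cells past the tendon limit and the quiescent one 126. The part of transcripts from tendon cells in the higher Thbs4 and Mgp was not tested.

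The same ranking held Ecm2, a matrix protein (26.1 to 104.8 CPM, 4.01-fold, 2.01 to 9.08), Vwa1, a basement membrane protein (3.81-fold, against 0.96 in the others), Pdgfrb, a receptor for platelet-derived growth factor (32.0 to 104.8 CPM, 3.28-fold, 1.74 to 6.83), and Pgk1, a glycolytic enzyme (3.61-fold, against 2.76-fold in the others). Pih1d1, of a chaperone complex, went from 4 to 50 unscaled UMIs, Slu7, a splicing factor, from 6 to 45 and Ifi30, a lysosomal thiol reductase, from 6 to 48. In CPM the rises were smaller than these counts. On the lower side were the clock genes Dbp, at 52.3 and 11.5 CPM, 4.55-fold lower (others 3.18-fold), and Per3, at 101.7 and 25.6 CPM, 3.98-fold lower (others 1.82-fold). Atp5k, a subunit of ATP synthase, was 3.10-fold lower, and 2.56-fold in the others. Kdm6b, a histone demethylase, was at 75.5 and 24.3 CPM, 3.11-fold lower, where the others had 43.6 and 44.6. Lgi2, Tmem26, Cand1, Baz1b, Atl2 and Basp1 were 3.03-fold to 3.54-fold lower at 12 to 32 UMIs in each set. Fam111a (33 and 25 UMIs) and Mob1a (29 and 22) completed the ranking, both past the 2-fold limit downwards in CPM. The immediate early list had 5 of 21 genes lower at day 14 and a median log2 ratio of -0.72, beside 419 of 10088 for all genes. In the other cells 2 of 21 were lower, with a median of -0.52. The time of day at which each library was taken is not given in the labels.

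**Figure D4:**
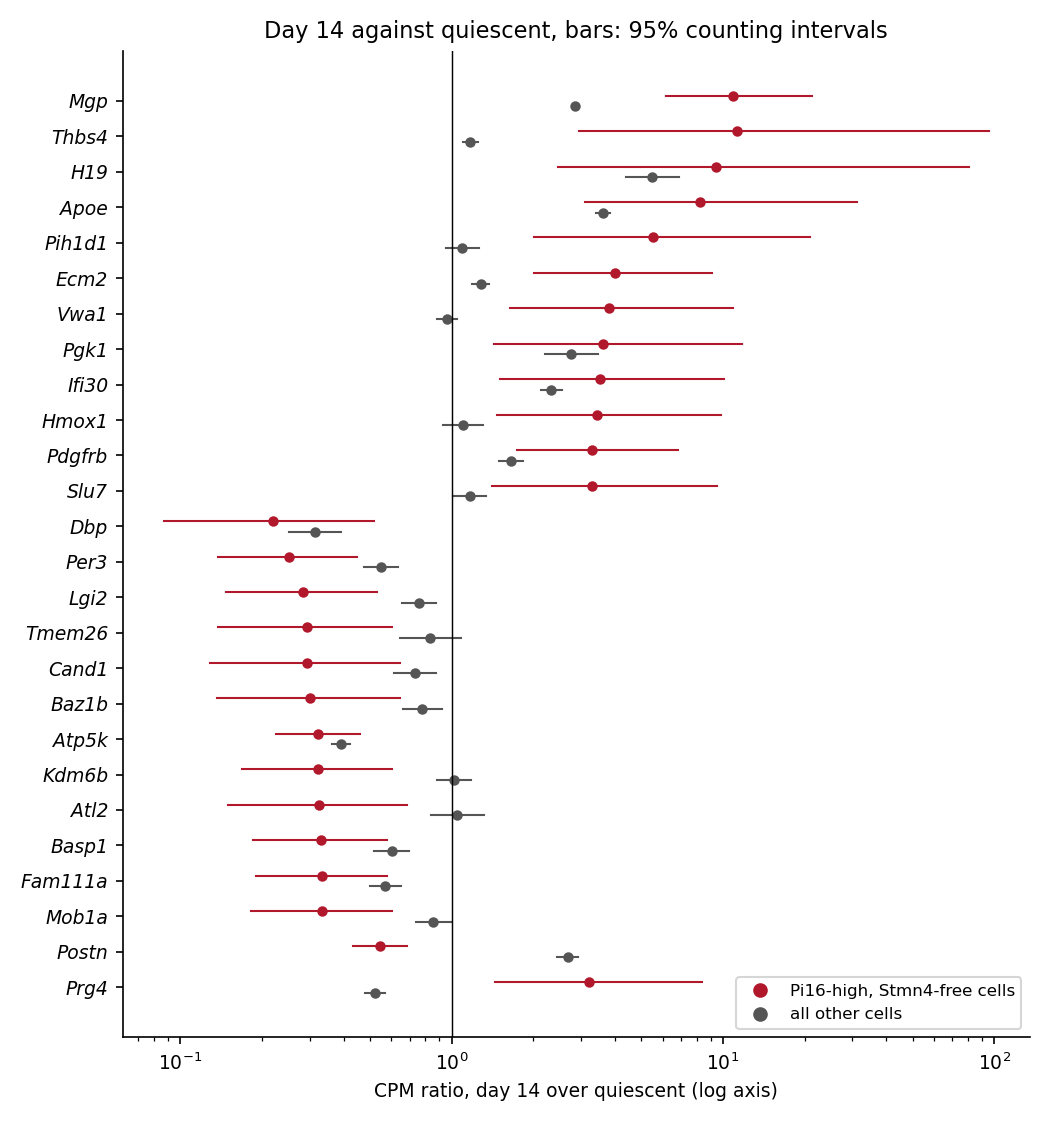
Ratio of CPM at day 14 over quiescent (horizontal log axis) for the 12 highest and 12 lowest genes of the Pi16-high Stmn4-free cells by the naming rule, with Postn and Prg4 added, and the same ratio in all other cells, with 95% counting intervals as lines. Intervals of the chosen cells are wide, as for Thbs4 (2.95 to 95.1), and Postn and Prg4 lie on opposite sides of 1 in the 2 sets.

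Compared with their Stmn4-positive counterparts, the cells differed in few genes that recurred. In the quiescent library 262 of 5924 genes passed the 2-fold limit upwards (4.42%) and 264 downwards (4.46%), with the interval clear of 1 for 102 and 90. At day 14, 75 of 5655 were higher (1.33%) and 91 lower (1.61%). In both libraries 13 of 5235 were higher (0.248%) and 14 lower (0.267%). The 13 were 4.96% and 17.3% of the higher genes of each library, and the 14 were 5.30% and 15.4% of the lower. Stmn4, by which the choice divides these sets, is among the 14. Of the 262 higher in the quiescent library, 148 had a ratio above 1 at day 14, and of the 264 lower, 143 had one below 1. The like shares over all compared genes were not computed. The counterparts were deeper, with medians of 4674 and 5824.5 UMIs. Pi16 itself was at 5982 against 6106 CPM and 6880 against 7568, and Dpp4 at 351.5 against 384.1 and 274.8 against 305.5.

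Among the recurring genes, Wisp2, a secreted CCN family protein, had 18 UMIs at 52.3 CPM against 3 at 4.61 in the quiescent library, 11.3-fold (3.31 to 60.1), and 58.8 against 17.5 CPM at day 14, 3.35-fold (2.06 to 5.53). Fbln1, a fibulin, was 3.20-fold and 2.59-fold higher. Cldn10, a claudin, was 3.57-fold and 2.68-fold higher, and Ptx3, a pentraxin of innate immunity, 2.65-fold and 2.31-fold, though 7 of its 21 and 12 of its 35 UMIs were in 1 cell. Col15a1, Vcam1, St3gal4 and Pgrmc2 were also higher in both, at 7 to 11 UMIs in the quiescent set. On the lower side, Tnfsf9, the ligand of 4-1BB, was at 69.7 against 159.8 and 106.1 against 226.8 CPM, 2.29-fold and 2.14-fold lower. Ackr2, a receptor that removes chemokines, was 3.04-fold and 2.39-fold lower, and Fam167a 2.80-fold and 2.90-fold. Pola2, Cnot6l, Nsdhl, Ttc7b and Akr7a5 had 2 to 4 UMIs in the quiescent set and 3 to 20 at day 14. Short of the 2-fold limit, Cd55, which shields cells from complement, was at 572.3 against 760.5 and 428.2 against 701.7 CPM. Sfrp2 passed it in the quiescent library alone, at 162.7 against 61.5 CPM, and was at 104.8 against 61.7 at day 14. None of the 24 adventitial progenitor genes was called in either direction in either library, with median log2 ratios of -0.19 and -0.23 beside -0.02 and -0.01 over all genes. Of 15 parenchymal fibroblast genes, 2 were called higher than in the counterparts in the quiescent library and 3 at day 14, none lower. Their median log2 ratios were 0.13 and 0.60.

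The chosen cells were not uniform. When each library's cells were clustered on variable genes with the genes of the choice left out, most chosen cells fell into 2 clusters in each library. The clusters are given by number, and genes named for them beyond the naming rule were picked after their values were seen. In the quiescent library cluster 1, led by Fam167a, Stmn4 and Gap43, held 41 of 93 (44.1%, 33.8 to 54.8), and cluster 3, led by Akr1c18, Dmkn and Krt19, held 44 (47.3%, 36.9 to 57.9). At day 14 cluster 2, led by Fgf1, Ackr2 and Pla1a, held 50 of 170 (29.4%, 22.7 to 36.9), and cluster 0, with Dmkn, Cldn11 and Cldn3 among its leading genes, held 108 (63.5%, 55.8 to 70.8). The Stmn4-positive counterparts were at 70.6% in cluster 1 and 28.7% in cluster 3 of the quiescent library, and at 45.7% in cluster 2 and 52.8% in cluster 0 of day 14. The clusters were made from these same cells, so the values that follow describe the division and test nothing.

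The markers of the chosen cells were unequal between these clusters. Igfbp5 was at 2761 CPM in the 44 cells of cluster 3 and 1246 in the 41 of cluster 1 in the quiescent library, and at 3274 in cluster 0 and 909.5 in cluster 2 at day 14. Sfrp2 was at 267.4 against 68.5 CPM, and 158.4 against 12.9. Il1r2 was at 261.6 against 54.8 and 197.0 against 12.9 CPM, and Plac8 at 244.2 against 34.2 and 337.1 against 30.2. In both libraries the cells with these genes also had more C3 (1448 against 650.5, 1450 against 422.4 CPM), Has1, a hyaluronan synthase (488.3 against 116.4, 377.7 against 73.3), Ptgs2 (180.2 against 27.4, 144.2 against 4.31), Wnt2 (151.2 against 54.8, 140.1 against 38.8) and the stress-response factor Atf3 (534.8 against 123.3, 428.5 against 73.3). Smpd3 was at 145.3 against 68.5 and 83.3 against 8.62 CPM. The intervals of Wnt2 and Smpd3 overlapped in the quiescent library, and those of Dact2 and Dpp4 in both libraries. Thbs2 (360.4 against 150.6, 172.6 against 202.6 CPM) and Gda (145.3 against 34.2, 69.0 against 56.0) differed between the clusters in the quiescent library alone, with overlapping intervals at day 14. Adh7 did the reverse, at 81.4 against 61.6 CPM with overlapping intervals and then 101.5 against 0. Some genes higher than in the counterparts also followed the clusters. Ptx3 was at 116.3 against 6.85 and 71.1 against 0 CPM. Cldn10 was at 87.2 against 13.7, with overlapping intervals, and 77.2 against 0. Fbln1 differed in the quiescent library alone (104.6 against 13.7, then 54.8 against 51.7). Wisp2 had overlapping intervals in both (52.3 against 13.7, 28.4 against 56.0).

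Other genes lay the opposite way, higher in clusters 1 and 2, with matrix genes on both sides of the division. Fn1 was at 1979 CPM in cluster 1 against 2715 in cluster 3, and at 1539 in cluster 2 against 2609 in cluster 0. Col4a1, on the other hand, was at 226.0 against 23.3 CPM in the quiescent library and 400.9 against 16.2 at day 14. Enpp2, the enzyme autotaxin, which makes lysophosphatidic acid, was at 191.7 against 11.6 and 306.0 against 24.4 CPM. Angptl1, an angiopoietin-like protein, was at 212.3 against 34.9 and 487.1 against 46.7, Col5a3 at 328.7 against 81.4 and 612.1 against 109.7, and Vtn, vitronectin, at 184.9 against 23.3 and 146.6 against 14.2 CPM. Cd55 was at 760.0 against 465.1 and 706.9 against 318.8 CPM, Fbn1, the microfibril protein fibrillin 1, at 2184 against 1250 and 1841 against 954.4, and Cd34 at 1904 against 1285 and 2603 against 1533. The cholesterol synthesis genes Hmgcs1 (191.7 against 23.3) and Fdps (143.8 against 11.6) differed in the quiescent library, and at day 14 were at 103.4 against 32.5 and 137.9 against 52.8 CPM.

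**Figure D5:**
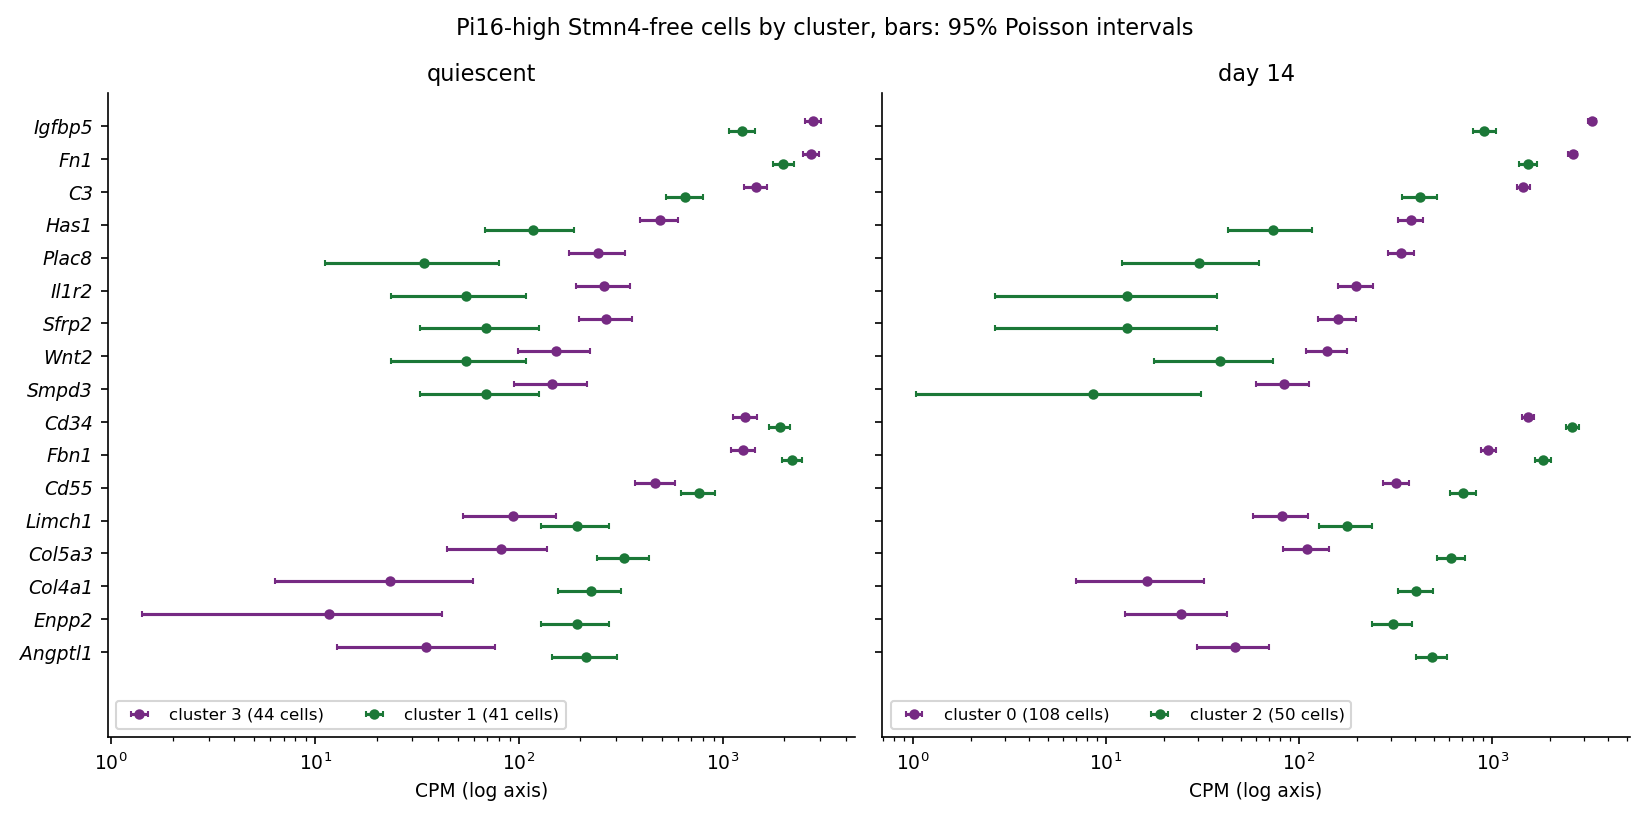
CPM (horizontal log axis) of 17 genes in the Pi16-high Stmn4-free cells, split by the 2 clusters that hold most of them, in the quiescent library (left) and at day 14 (right), with 95% Poisson intervals as bars. The genes from Igfbp5 to Smpd3 are higher in clusters 3 and 0 and those from Cd34 to Angptl1 in clusters 1 and 2; the intervals overlap for Wnt2, Smpd3 and Limch1 in the quiescent library.

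Depth, Pi16 and the left-out genes were read beside this division. The cells of clusters 1 and 3 had medians of 3663 and 4018.5 UMIs, and those of clusters 0 and 2 of 3906.5 and 4334. Pi16 was at 5560 and 6470 CPM in clusters 1 and 3, and at 7520 and 5810 in clusters 0 and 2. Sbsn, limited by the choice to fewer than 3 UMIs with Dmkn and Krtdap, gave 25 UMIs in the 44 cells of cluster 3 and 1 in the 41 of cluster 1, and 45 in cluster 0 against 8 in cluster 2. The sum of Dmkn, Sbsn and Krtdap was 0 in 68 of the 93 quiescent cells and in 121 of the 170 at day 14. The part of cells just under the Dmkn limit in the division was not tested. Fos, an immediate early gene that dissociation can raise, was at 2820 against 1116 CPM in clusters 3 and 1 and at 1885 against 323.3 in clusters 0 and 2, and its part was not tested either.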

How the data were processed

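Whole-number UMI counts per gene and cell were deposited by the authors for 5 libraries, made with Cell Ranger on mm10 per the submitters' processing notes, versions not given in the sources used here. They were summed over the cells of each set and scaled to CPM in Python (numpy 2.4.6, scipy 1.17.1, pandas 2.3.3), and clusters came from scanpy 1.11.5 and leidenalg 0.10.2 at a resolution of 0.5 on 2000 variable genes, 30 principal components and 15 neighbours, without the genes of the choice. Members and gene lists were chosen with earlier results of these data known. With 1 library per time point no test across samples was run. A gene was called at 2-fold or more with at least 20 CPM in the higher set, and log2 ratios had 1 CPM added. Intervals are Poisson for CPM, Clopper-Pearson for shares and conditional binomial for ratios. The code was tested on simulated data. Ranked genes were the 14 highest and 10 lowest against other cells (at least 50 CPM, by the smaller change of both libraries), 12 each way over time, 8 each way against counterparts, and at most 4 per list of 44; mitochondrial, ribosomal, haemoglobin, Gm and Rik genes and those of the choice were left out of the ranking. No cells were removed as doublets, as Scrublet (in scanpy) marked only 4 and 3; an alternative left out the 37 and 98 cells of highest doublet score, 1 and 6 of them members. TMM (edgeR 4.0.16) and DESeq2 1.42.0 size factors served as alternatives for scaling only. The listed genes C1s2, Ccl19, Cebpd, Ltbp4 and Vegfd were not analysed here.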

Additional observations from a re-analysis of the deposited data

Results flagged for a closer look

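Among 396 genes examined, 2 moved at least 1.5-fold one way with time in the Pi16-high Stmn4-free cells and at least 1.5-fold the other way in all other cells. The difference was not tested, since each time point is 1 library. Postn, the matrix protein periostin, was at 415.4 CPM in the chosen quiescent cells and 226.3 at day 14, a ratio of 0.5446 (0.434 to 0.684), while the other cells were at 84.6 and 226.2 CPM, a ratio of 2.67 (2.44 to 2.93). In the quiescent library the chosen cells thus had 4.91 times (4.06 to 5.91) the Postn of the others, and all 177 of their day 14 UMIs but 4 lay in cluster 0. Prg4, the lubricating proteoglycan lubricin, had 7 UMIs at 20.3 CPM in the chosen quiescent cells and 51 at 65.2 at day 14, a ratio of 3.2057 (1.45 to 8.37), while the other cells were at 170.6 and 89.2 CPM, a ratio of 0.523 (0.481 to 0.569). In the Stmn4-positive counterparts the ratios were 1.35 for Postn and 0.787 for Prg4.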

How the results depend on the processing

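No paired analysis was possible because each time point is 1 library. Of 98 counts and shares under the alternatives, 31 moved, each a count beyond 1.5 times. The other 67 kept within it, including both shares of cells under each alternative run for them. The excess of lower over higher genes between times turned to an excess of higher ones with TMM (386 and 358) and with DESeq2 (389 and 358). With no CPM minimum it was 1106 and 585, under a limit in counts that favours the set with more UMIs, here day 14. With at least 50 CPM in place of 20, the genes higher and lower were 72 and 142 against other quiescent cells, 31 and 103 at day 14, 70 and 95 over time, 39 and 43 against quiescent Stmn4-positive counterparts and 13 and 15 at day 14, fewer genes being open to a call. With 5 counts in place of a CPM minimum, lower genes were 3201 and 2938 against other cells and 923 and 779 against counterparts, and higher genes 225 at day 14 against other cells, 411 and 432 against counterparts and 1106 over time. That limit asks a lower CPM of the larger sets, which were the other cells, the counterparts and the day 14 cells. Against other cells without Pi16, higher genes were 442 and 290, and lower genes at day 14 549; against those with Pdgfra, higher genes at day 14 were 107. With each cell weighted equally, higher genes were 338 and 118 against other cells and 121 against counterparts at day 14. With cells thinned to 2500 UMIs, the counterpart comparison gave 635 higher and 769 lower genes, then 326 and 346 at day 14. Thinning the other cells' sums, added after seeing the data, gave 337 and 365 genes over time against 60 and 37. Apart from these constructions, the cause was not tested. Depth limits the quiescent set most, where 20 CPM is 6.88 UMIs.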

Other observations

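Further genes separated the chosen cells of the 2 main clusters in each library, picked after their values were seen. Apod, a lipid-binding lipocalin, was at 662.7 CPM in cluster 3 and 75.3 in cluster 1 of the quiescent library, and at 515.8 in cluster 0 and 310.3 in cluster 2 at day 14. Cxcl12, a chemokine that holds blood progenitors in their niche, lay the other way, at 110.5 against 328.7 CPM and 178.7 against 1414. Pthlh, parathyroid hormone-related protein, was at 52.3 against 157.5 and 121.8 against 646.5 CPM, with 21.6% of its day 14 UMIs in 1 cell.

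Il6 and Ccl2 counts in the chosen cells were concentrated in single cells, unlike those of Ccl11, which lay in 65 of 93 quiescent and 122 of 170 day 14 cells. Of the Il6 UMIs, 90.9% in the quiescent library and 47.2% at day 14 lay in 1 cell, and of those of Ccl2, 62.5% and 51.7%. The semaphorin and guidance list had 2 higher and 2 lower of 16 in the quiescent library and 2 higher and 1 lower of 15 at day 14.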
